A study of Mus musculus with 30 samples.

Results

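Gene expression in mouse retinal ganglion cells (RGCs) 3 days after optic nerve crush was set against that 1 day after crush. The libraries were chosen by their day label alone, 3 of day 3 and 3 of day 1, which makes 6 of the 30 samples the labels list (15 of RNA and 15 of chromatin accessibility, or ATAC). Both groups are injured, both carry the strain label C57BL/6, and they differ in the labels only in the days since crush, so no uninjured cell enters the comparison. Sex and age are not given. For every library the retina was freed into cells with papain, RGCs were sorted by fluorescence, and RNA of 5000 to 10000 cells was amplified with the SMART-Seq v4 kit, which does not mark the strand. Whether the replicates are separate animals is not stated, and p-values therefore cover only the spread among these 6 libraries, part or all of which may be technical. The other RNA libraries, 2 of day 4, 2 of day 2 and 3 of uninjured retina (day 0), are used here only to place the levels of days 3 and 1 and, for days 4 and 2, as a second pair of days. Of the uninjured libraries, replicates 2 and 3 carry the strain labels C57BL/7 and C57BL/8.

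RGCs are the output neurons of the retina and send visual signals to the brain through the optic nerve. After the nerve is crushed, kinases of the DLK and JNK pathway carry an injury signal back to the cell body, where transcription factors such as Jun, Atf3, Sox11 and Ddit3 (CHOP) are induced, and most RGCs then die over the following weeks. One branch of this reaction, the integrated stress response, slows general translation and raises the factor ATF4, which with CEBP partners turns on genes of amino acid synthesis and import and of tRNA charging.

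The day 3 libraries held 23752481, 22904051 and 23236961 counts in genes and the day 1 libraries 19577588, 22881404 and 20851499. Their most abundant gene, Malat1 or Snap25, took 1.53% to 2.11% of the counts. Levels are given as CPM, counts relative to library size, with library sizes scaled by the TMM method. The first principal component of log2 CPM held 62.3% of the variance and separated the days. Libraries of 1 day correlated at 0.9695 to 0.9807 and those of different days at 0.9158 to 0.9383 over genes, and no pair of libraries agreed within sampling noise. The RGC markers Rbpms, Thy1, Sncg and Slc17a6 (the vesicular glutamate transporter of RGCs) were present in every library, with Thy1, chosen for this check, at 1379 to 1685 CPM on day 3 and 1527 to 1581 CPM on day 1. Some markers of vascular cells (Pecam1, Cldn5, Cdh5), oligodendrocytes (Mog, Olig1, Olig2, Sox10) and pigment epithelium (Rpe65) were not among the 13752 genes of the table, but others were. The 3 vascular markers tested summed to 6.14, 4.31 and 3.95 CPM on day 3 and 12.6, 5.13 and 8.62 CPM on day 1. The 3 oligodendrocyte markers tested summed to 31.6, 38.7 and 28.7 CPM on day 3 and 39.8, 39.1 and 42.1 CPM on day 1. The 1 pigment epithelium marker tested had 3.90, 6.15 and 4.25 CPM on day 3 and 7.81, 7.47 and 7.10 CPM on day 1. The 12 rod markers summed to 756, 808 and 927 CPM on day 3 and 927, 1023 and 1214 CPM on day 1, so some rod RNA was in every library. Libraries differed in Xist, the RNA that coats a silenced X chromosome, at 971, 6.15 and 910.3 CPM on day 3 and 1842, 1605 and 1155 CPM on day 1. Day 3 replicate 2 is therefore near 0 for Xist and the other 5 libraries are not. Xist itself was not called (log2 -1.29 ± 0.86, adjusted p = 0.279). How far the sex of the animals takes part in other values was not tested. Without day 3 replicate 2, 3860 genes were called, against 4689 with all 6 libraries.

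Of 13482 genes tested with edgeR's quasi-likelihood test, 4689 (34.8%) differed between day 3 and day 1 at an adjusted p (Benjamini-Hochberg over all genes tested) under 0.05. Of these, 2273 (16.9%) were higher and 2416 (17.9%) lower on day 3. Falls were the deeper changes among the genes called. The median level was 54.5 CPM for the higher genes and 34.1 CPM for the lower ones. The part of this difference in level in the sizes of the changes was not tested. Of the genes called, 543 (4.03% of those tested) were at least 2-fold higher and 1079 (8% of those tested) at least 2-fold lower, and the median size of a change was 0.63 on the log2 scale among the higher genes and 0.91 among the lower ones. The median log2 change of all genes tested was 0.0058. The 3 libraries of day 3 lay wholly above or wholly below the 3 of day 1 in 2234 of the 2273 higher genes and 2327 of the 2416 lower ones, against 46.3% of all genes tested. A lack of overlap in a called gene named below therefore adds little to its call. The day 2 libraries took no part in the fit. Their mean lay between the means of days 3 and 1 in 79.8% of the higher genes and 76.0% of the lower. It did so in 30.6% of the genes not called. Called genes were selected for a wide gap between days 3 and 1, however, and the median size in genes not called was 0.21. A wider gap takes in the day 2 mean more often, so the contrast between these shares does not test the calls. The sorted RNA is a bulk sample, so fewer cells of a type and less RNA per cell cannot be told apart in any of these values.

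**Figure D1:**
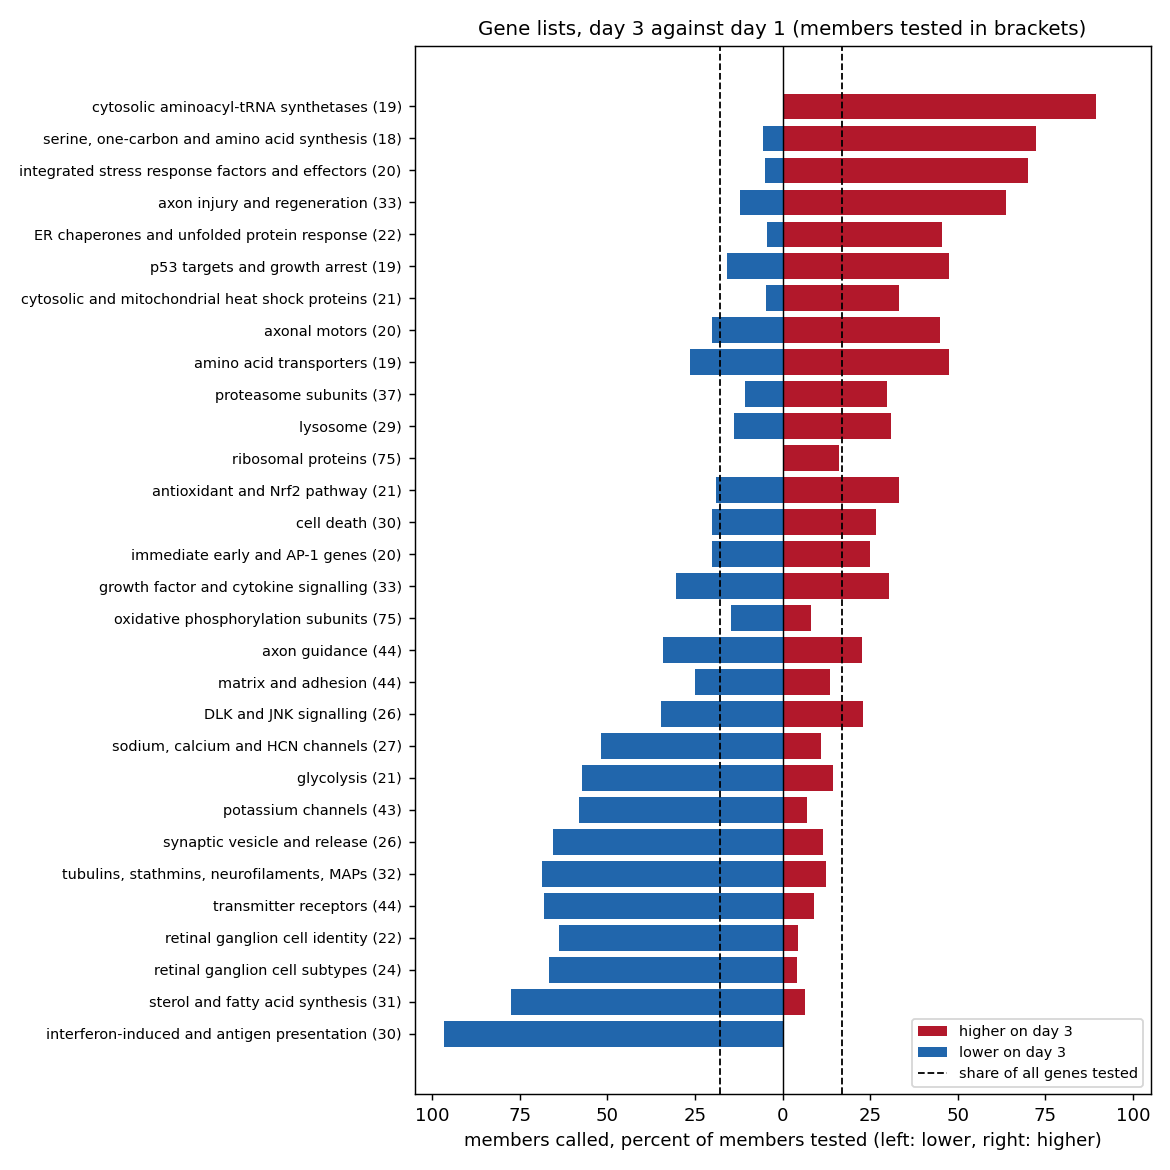
Share of the tested members of each of 30 gene lists that were called higher (bars to the right) or lower (bars to the left) on day 3 than on day 1, in percent, with dashed lines at the 16.9% and 17.9% of all genes tested. Lists of the stress response, amino acid supply, tRNA synthetases and axon injury stand far past the right line, and those of interferon, sterol synthesis, receptors and RGC identity far past the left one.

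The 12 largest rises included genes known from injured neurons, and the naming rule required that their days not overlap. Ecel1, a membrane peptidase of the endothelin-converting family on chromosome 1 (87147655 to 87156521, minus strand, mm10), stood at 317, 401 and 414 CPM on day 3 and 1.396, 3.33 and 4.66 CPM on day 1. Sprr1a, a small proline-rich protein of growing injured axons on chromosome 3 (92483952 to 92485895, minus strand), stood at 623, 673 and 711 CPM on day 3 and 7.65, 5.67 and 4.38 CPM on day 1. In both genes the lowest day 3 library lay far above the highest day 1 library. Ecel1 rose 119-fold (log2 6.89 ± 0.26, SE; adjusted p = 3.32e-10) and Sprr1a 114-fold (log2 6.83 ± 0.16, adjusted p = 5.97e-12). The secreted guidance protein gene Sema3c had 65.03, 64.8 and 62.1 CPM on day 3 and 1.24, 1.17 and 0.553 CPM on day 1, a 64.8-fold rise. Colec10, a collectin, stood at 40.6, 54.7 and 33.8 CPM on day 3 and 0.983, 0.135 and 0.968 CPM on day 1, and had no counts in the uninjured libraries. The actin-binding proteins Avil (advillin; log2 4.68 ± 0.17) and Xirp2 (4.63) rose, as did the exchange factor Rin1 (4.81), the ATP-gated channel P2rx5 (4.74), Bpifc (5.21), the intermediate filament nestin (Nes, 4.60) and the oxidase Nox4 (4.39). Itga5, a subunit of the fibronectin receptor, had 56.02, 72.3 and 79.7 CPM on day 3 and 6.36, 3.51 and 4.47 CPM on day 1 (log2 3.86 ± 0.21). In the uninjured libraries Ecel1 had a mean of 2.15 CPM, Sprr1a 1.45 CPM and Sema3c 0.429 CPM.

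**Figure D2:**
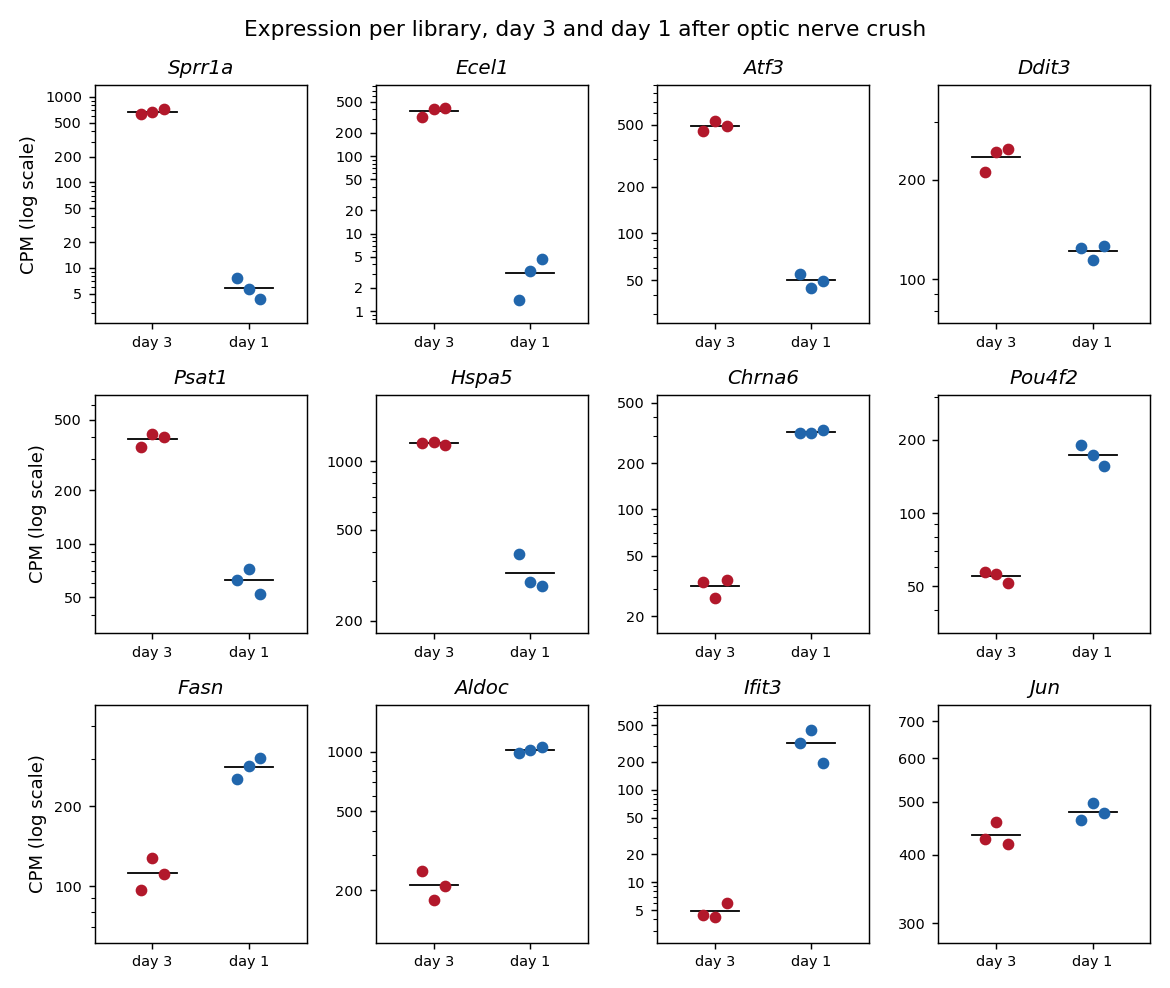
CPM on a log axis of 12 genes in the 3 day 3 libraries (left) and the 3 day 1 libraries (right); each point is a library and the line is the group's mean. Sprr1a, Ecel1, Atf3, Ddit3, Psat1 and Hspa5 are higher on day 3 in every library, Chrna6, Pou4f2, Fasn, Aldoc and Ifit3 are lower in every library, and Jun was not called.

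Of the 33 tested members of the axon injury and regeneration list, 21 rose, 4 fell and 8 were not called, with a median log2 change of 1.20. It shares Atf3 with the stress response list, where that gene is described. Cdkn1a, the cell cycle inhibitor p21, had 474, 627 and 599 CPM on day 3 and 60.6, 66.4 and 59.1 CPM on day 1 (log2 3.19 ± 0.11, adjusted p = 2.82e-10). Mmp12, the macrophage metalloelastase that injured RGCs also express, had 663, 667 and 632 CPM on day 3 and 107, 95.8 and 91.1 CPM on day 1 (log2 2.74 ± 0.09). Sox11, a transcription factor of developing neurons, had 922, 962 and 872 CPM on day 3 and 303, 351 and 297 CPM on day 1 and rose 2.90-fold. Cd44, the hyaluronan receptor, was at 51.4, 54.6 and 51.7 CPM on day 3 and 15.5, 7.96 and 7.79 CPM on day 1. Vgf, a precursor of secreted neuropeptides, belongs to the growth factor and cytokine list and not to this one. It was at 152, 204 and 192 CPM on day 3 and 20.1, 21.01 and 18.9 CPM on day 1. In all 5 genes the days did not overlap. Arg1, Sox4 and Stat3 were among the 4 falls of the list. The falls were 2 when day 3 replicate 2, day 3 replicate 3 or day 1 replicate 1 was left out, and Arg1 lost its call each time. Stat3 lost its call with all RNA libraries in 1 fit.

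Genes of the integrated stress response were mostly higher on day 3 than on day 1. Of the 20 members tested, 14 rose, 1 fell and 5 were not called (median log2 0.93). Atf3, a stress-induced repressor and activator on chromosome 1 (191170296 to 191218039, minus strand), had 454, 533 and 489.6 CPM on day 3 and 54.9, 44.8 and 49.6 CPM on day 1. It rose 9.89-fold (log2 3.31 ± 0.10, adjusted p = 1.45e-10). Atf4 mRNA itself had 578, 631 and 656 CPM on day 3 and 329.9, 339.8 and 320.2 CPM on day 1, a 1.88-fold rise, while ATF4 is known to be controlled mainly by translation, which RNA levels do not show. Its relative Atf5 had 219.9, 231 and 231 CPM on day 3 and 86.6, 84.8 and 82.9 CPM on day 1 (log2 1.42 ± 0.09). Ddit3, which encodes the pro-apoptotic factor CHOP, had 212, 243 and 249 CPM on day 3 and 124, 115 and 126 CPM on day 1 (log2 0.95 ± 0.09, adjusted p = 1.99e-06). All 4 factors were higher in each day 3 library than in any day 1 library. Of the effectors, Chac1, which degrades glutathione, had 197, 226 and 215 CPM on day 3 and 67.96, 80.6 and 86.3 CPM on day 1 (log2 1.44 ± 0.11), and Sesn2, a leucine sensor that restrains mTORC1, had 100.0, 109 and 134 CPM on day 3 and 28.7, 37.5 and 34.6 CPM on day 1 (log2 1.77 ± 0.13). Cebpg, a dimer partner of ATF4, had 233, 202 and 183 CPM on day 3 and 176, 193 and 168 CPM on day 1, so its days overlapped, and it was not called (log2 0.20 ± 0.10, adjusted p = 0.141). The 1 member that fell was Eif2ak2, the double-stranded RNA kinase PKR, which is also induced by interferon, at 8.98, 8.40 and 5.09 CPM on day 3 and 84.1, 101 and 35.7 CPM on day 1 (log2 -3.30 ± 0.32).

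The site that ATF4 binds together with a CEBP partner, TGATGCAA (TTGCATCA on the other strand), was looked for in RefSeq promoter windows of GRCm38.p6, from 250 bases before to 50 after a gene's start. Of the 53 genes of the stress, synthesis, transporter and tRNA synthetase lists that rose, 40 had a window in the table, and 12 of the 40 held the site: Atf3, Chac1, Aars, Slc7a11, Yars, Pycr1, Tars, Slc1a4, Nupr1, Vldlr, Iars and Got1. The windows of the 4 with the smallest adjusted p are shown, each on its gene's strand with the site in capitals.
Atf3 (chr1:191183284-191183583, minus strand): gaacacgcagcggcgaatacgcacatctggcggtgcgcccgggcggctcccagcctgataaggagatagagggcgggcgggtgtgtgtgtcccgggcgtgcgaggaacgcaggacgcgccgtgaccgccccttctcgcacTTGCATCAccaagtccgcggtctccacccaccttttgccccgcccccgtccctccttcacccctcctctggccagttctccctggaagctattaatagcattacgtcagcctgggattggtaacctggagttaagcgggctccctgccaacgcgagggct
Chac1 (chr2:119350992-119351291, plus strand): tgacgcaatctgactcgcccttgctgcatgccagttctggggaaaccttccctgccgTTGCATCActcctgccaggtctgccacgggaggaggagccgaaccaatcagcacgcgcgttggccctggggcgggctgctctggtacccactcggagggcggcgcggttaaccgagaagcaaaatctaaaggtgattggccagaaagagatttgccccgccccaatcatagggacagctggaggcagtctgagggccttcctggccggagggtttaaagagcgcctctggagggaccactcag
Aars (chr8:111033592-111033891, plus strand): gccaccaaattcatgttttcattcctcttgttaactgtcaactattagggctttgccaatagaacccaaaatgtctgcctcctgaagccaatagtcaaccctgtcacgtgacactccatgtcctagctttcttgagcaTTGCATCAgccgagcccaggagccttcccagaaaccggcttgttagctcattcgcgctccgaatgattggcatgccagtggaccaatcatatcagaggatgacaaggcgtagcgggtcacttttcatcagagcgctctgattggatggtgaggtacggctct
Slc7a11 (chr3:50443564-50443863, minus strand): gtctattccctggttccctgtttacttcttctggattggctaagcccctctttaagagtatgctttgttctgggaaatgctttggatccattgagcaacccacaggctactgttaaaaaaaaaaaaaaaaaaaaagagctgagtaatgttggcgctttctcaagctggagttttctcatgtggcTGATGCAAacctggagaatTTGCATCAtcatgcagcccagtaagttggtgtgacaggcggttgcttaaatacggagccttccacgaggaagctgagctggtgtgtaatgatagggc
The first site begins 110 bases before the start in Atf3, 193 in Chac1, 112 in Aars and 66 in Slc7a11, which holds 2. For Atf3 the window belongs to a start inside the gene's deposited span. The site was present in 0.895% of all 32851 RefSeq windows. The share was 1.28% of the windows of genes higher on day 3 (30 of 2351), 0.577% of those of lower genes (15 of 2598) and 0.484% of those of genes not called (42 of 8676). The 30 windows include those of the 12 genes named above. The share among the other higher genes is therefore below 1.28% and was not computed. By list, counting risen members only, it was 40.0% for the tRNA synthetases (4 of 10), 26.7% for the stress response (4 of 15), 22.2% for the transporters (2 of 9), 16.7% for the synthesis genes (2 of 12) and 4.17% for axon injury (1 of 24). The first 4 of these lists are of kinds of genes that ATF4 is known to turn on. The share among their members that did not rise was not computed, so these shares do not tie the site to the rise. Other motifs were also searched on both strands. The CRE site TGACGTCA was in 2.93% of the windows of higher genes, 2.54% of those of lower genes and 3.09% of those of genes not called (1.79% of all windows). The AP-1 site TGANTCA was in 7.02% of the windows of higher genes, 5.00% of those of lower genes and 4.53% of those not called (7.81% of all), and the sterol regulatory site TCACNCCA in 3.32%, 4.35% and 3.79% in the same order (4.36% of all). No motif contains another, and a window may hold several. A match is a description of the letters and shows neither binding nor its lack.

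Enzymes that make serine, one-carbon units and other amino acids mostly rose. Of 18 members tested, 13 rose, 1 fell and 4 were not called (median log2 1.01). Psat1, of serine synthesis, on chromosome 19 (15904678 to 15947337, minus strand), had 349, 414 and 401 CPM on day 3 and 62.4, 72.6 and 52.5 CPM on day 1 (log2 2.63 ± 0.12, adjusted p = 1.86e-09). Shmt2, which moves a carbon unit from serine to folate in mitochondria, had 127, 110.0 and 106 CPM on day 3 and 25.9, 31.9 and 33.1 CPM on day 1 (log2 1.91 ± 0.12). Asns, the asparagine synthetase, had 508, 534 and 568 CPM on day 3 and 211, 220.3 and 222 CPM on day 1 (log2 1.30 ± 0.08). In each of these 3 genes the lowest day 3 library was above the highest day 1 library. The 1 fall, that of the folate enzyme Aldh1l1, which astrocytes express strongly, was not called when day 3 replicate 1, day 3 replicate 2 or day 1 replicate 3 was left out.

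Amino acid transporters were divided, with 9 of 19 higher, 5 lower and 5 not called (median log2 0.48). Slc7a3, a carrier of arginine and lysine, had 89.04, 81.3 and 81.1 CPM on day 3 and 4.50, 7.78 and 5.21 CPM on day 1, a 14.3-fold rise (adjusted p = 1.86e-09). Slc3a2 and Slc7a5, which together form the carrier of large neutral amino acids, rose by log2 1.58 ± 0.09 and 1.55 ± 0.11. Slc43a2, another carrier of neutral amino acids, went the other way, at 53.3, 58.5 and 62.2 CPM on day 3 and 152, 148 and 145 CPM on day 1 (log2 -1.35 ± 0.10). The cytosolic aminoacyl-tRNA synthetases, which load tRNAs with amino acids, rose almost as a whole, with 17 of 19 higher, none lower and 2 not called (median log2 0.89). Wars, for tryptophan, had 318, 325 and 322 CPM on day 3 and 103, 103 and 99.1 CPM on day 1 (log2 1.66 ± 0.08, adjusted p = 3.05e-09), Eprs, for glutamate and proline, had 694, 749.9 and 665 CPM on day 3 and 254, 263 and 239 CPM on day 1, and Nars, for asparagine, had 1725, 1757 and 1621 CPM on day 3 and 686, 736 and 594 CPM on day 1.

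Protein folding and turnover genes rose in part. Of 22 chaperones and unfolded protein response genes of the endoplasmic reticulum, 10 rose, 1 fell and 11 were not called. Hspa5, the main chaperone BiP, had 1208, 1213 and 1176 CPM on day 3 and 393, 296 and 285 CPM on day 1 (log2 1.88 ± 0.11, adjusted p = 1.58e-08), and the days did not overlap. Atf6, a sensor of unfolded protein, rose by log2 1.10 ± 0.09, while the lectin chaperone Canx was the 1 that fell, at 568, 547 and 554 CPM on day 3 and 888, 833 and 820.5 CPM on day 1. Without day 3 replicate 1 that count was 2. Of 21 cytosolic and mitochondrial heat shock proteins 7 rose, 1 fell and 13 were not called. Hspa9, the mitochondrial chaperone mortalin, had 728, 745 and 725 CPM on day 3 and 229, 210.4 and 231 CPM on day 1 (log2 1.71 ± 0.08), and Hsp90aa1, the inducible HSP90, rose by log2 0.99 ± 0.09. Ribosomal protein genes were mostly not called (12 of 75 higher, none lower, 63 not called; median log2 0.23), and the shares were near or under the background of 16.9% and 17.9%. Proteasome subunits were 11 higher, 4 lower and 22 not called of 37, with the core subunit Psmb1 (log2 0.71) and the ATPase subunit Psmc2 (0.71) among the rises. The immunoproteasome subunits Psmb8, Psmb9 and Psmb10, which interferon induces, were among the 4 falls, with Psmb9 at 1.99, 2.86 and 2.72 CPM on day 3 and 68.2, 47.1 and 49.8 CPM on day 1.

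Cell death genes did not move as a block, while p53 targets and growth arrest genes had a share of rises above that of all genes tested. Of 30 cell death genes 8 rose, 6 fell and 16 were not called (median log2 0.11), so that the share of falls was near the background. Hrk, a BH3-only protein known to be induced in neurons before death, had 158, 208 and 166 CPM on day 3 and 39.7, 47.01 and 49.05 CPM on day 1 (log2 1.97 ± 0.12, adjusted p = 3.15e-08). Of the falls, the survival gene Bcl2l2 had a log2 change of -0.46 ± 0.09, and the initiator caspase gene Casp8 was at 0.212, 0.220 and 0.934 CPM on day 3 and 6.93, 0.855 and 3.27 CPM on day 1, low values whose days overlapped (log2 -2.996 ± 0.78, adjusted p = 0.00813). The 6 falls were 2 without day 1 replicate 1 and 3 without day 3 replicate 3 or day 1 replicate 3. Among 19 p53 targets and growth arrest genes 9 rose, 3 fell and 7 were not called, against a background of 16.9% higher and 17.9% lower. Beside Cdkn1a, the p53 target Gadd45a had 163, 150.4 and 144 CPM on day 3 and 20.8, 27.98 and 21.9 CPM on day 1 (log2 2.69 ± 0.12), and Trp53, which encodes p53, rose by log2 1.15 ± 0.14. The 3 falls were 1 without day 1 replicate 3.

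Of 26 DLK and JNK pathway genes 6 rose, 9 fell and 11 were not called (median log2 -0.01), against a background of 16.9% higher and 17.9% lower. Tnik, a kinase of the JNK pathway, had 732, 748 and 665 CPM on day 3 and 205, 214 and 176 CPM on day 1 (log2 1.85 ± 0.09), and the phosphatase gene Dusp4 rose by log2 1.62 ± 0.19, while Mapk10, the neuronal JNK3, fell (log2 -0.87 ± 0.08). Without day 1 replicate 2 the 9 falls were 5. Of 20 immediate early and AP-1 genes 5 rose, 4 fell and 11 were not called, shares near that background. Jun, the AP-1 factor phosphorylated by JNK, had 427, 458 and 418 CPM on day 3 and 463, 497 and 476 CPM on day 1 and was not called (log2 -0.14 ± 0.08, adjusted p = 0.191). Its level on both days was above that of the uninjured libraries, at 57.97, 81.5 and 125 CPM. Fos, induced by activity and by cell dissociation, was lower, at 41.5, 24.3 and 28.5 CPM on day 3 and 45.1, 58.5 and 72.1 CPM on day 1 (log2 -0.90 ± 0.19, adjusted p = 0.00236), and Fosl2 rose by log2 1.24 ± 0.11. The 5 rises were 3 without day 3 replicate 1, and the 4 falls were 1 without day 3 replicate 2, day 1 replicate 2 or day 1 replicate 3, and 2 without day 3 replicate 3.

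Genes that define RGCs were lower on day 3. Of 22 identity genes 14 fell, 1 rose and 7 were not called (median log2 -0.66). Pou4f2, the factor that sets the RGC fate, had 57.5, 56.5 and 51.6 CPM on day 3 and 191, 173 and 155 CPM on day 1, 3.14-fold lower (log2 -1.65 ± 0.10, adjusted p = 2.99e-08). Its relative Pou4f1 had 147, 179 and 145 CPM on day 3 and 302, 299.8 and 296 CPM on day 1 (log2 -0.93 ± 0.09), and the RNA-binding protein gene Rbpms, a marker of all RGCs, 250.3, 263 and 263 CPM on day 3 and 383, 439 and 367 CPM on day 1 (log2 -0.61 ± 0.09). In these 3 genes each day 3 library was below each day 1 library. The deepest fall of the list was in Chrna6, a nicotinic receptor subunit on chromosome 8 (27403212 to 27413944, minus strand), at 33.7, 26.5 and 34.8 CPM on day 3 and 317, 315 and 330.1 CPM on day 1, 10.1-fold lower (log2 -3.34 ± 0.11, adjusted p = 1.82e-10). Its partner subunit Chrnb3 had 271, 219 and 222 CPM on day 3 and 902, 989 and 900.5 CPM on day 1, and Tppp3, a tubulin-binding protein, 39.97, 39.1 and 43.6 CPM on day 3 and 223, 271 and 217 CPM on day 1. Slc17a6, the glutamate transporter that loads RGC synaptic vesicles, was the 1 member that rose, with 1826, 1690.5 and 1574 CPM on day 3 and 1253, 1264 and 1047 CPM on day 1 (log2 0.51 ± 0.09). Thy1 had a log2 change of -0.02 ± 0.08 and was not called (adjusted p = 0.897). A fall of the list is thus not shared by every general RGC marker.

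Markers of RGC subtypes fell in 16 of 24 cases, with 1 higher and 7 not called (median log2 -0.76). The calcium buffers Calb1 and Pvalb fell most among the genes named. Calb1 had 9.48, 7.78 and 10.5 CPM on day 3 and 80.8, 83.5 and 89.9 CPM on day 1 (log2 -3.19 ± 0.14), and Pvalb, at log2 -2.59 ± 0.14, fell too. The peptide genes Cartpt, of direction-selective RGCs, and Penk, which encodes enkephalins, moved in opposite ways. Cartpt fell (log2 -1.81 ± 0.11), and Penk had 141, 149.8 and 149 CPM on day 3 and 61.2, 63.2 and 54.5 CPM on day 1 (log2 1.30 ± 0.10), the 1 rise of the list. That count of rises was 2 without day 1 replicate 1.

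Channels, receptors and the release machinery were lower in most members. Transmitter receptors fell in 30 of 44 cases, with 4 higher and 10 not called (median log2 -0.80). Gria2, an AMPA receptor subunit, had 206, 185 and 202 CPM on day 3 and 491, 525 and 511 CPM on day 1 (log2 -1.36 ± 0.08), and the kainate receptor subunit gene Grik3 rose (log2 0.91 ± 0.13). Potassium channels were 25 lower, 3 higher and 15 not called of 43, with the auxiliary subunit Kcnab2 at log2 -1.53 ± 0.09, the channel-interacting protein Kcnip4 at -1.38 and the axonal channel Kcna2 at -1.19, and the calcium-activated channel Kcnma1 higher at 0.89. Sodium, calcium and hyperpolarization-activated channels were 14 lower, 3 higher and 10 not called of 27. Cacna1g, a T-type calcium channel, fell (log2 -1.80 ± 0.10), and so did the sodium channel subunits Scn3b (-1.70) and Scn1a (-1.30). Synaptic vesicle and release genes were 17 lower, 3 higher and 6 not called of 26, among them the vesicle protein Sv2b (log2 -1.79), the vesicle GTPase Rab3a (-1.32) and the SNARE regulator complexin 2 (Cplx2, -0.92). Each of these 4 lists had a share of falls above the background of 17.9%.

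The cytoskeleton changed in an uneven way. Of 32 tubulins, stathmins, neurofilaments and microtubule-associated proteins 22 fell, 4 rose and 6 were not called (median log2 -0.69). Tubb4a, a neuronal beta-tubulin, had 256, 272 and 279 CPM on day 3 and 1038, 1123 and 831 CPM on day 1 (log2 -1.89 ± 0.11), and Tubb3, the tubulin most used as a neuron marker, 111, 112 and 108 CPM on day 3 and 292, 283 and 335 CPM on day 1 (log2 -1.46 ± 0.09). Tubb6, another beta-tubulin, rose by log2 1.19 ± 0.20, and so did the microtubule-associated proteins Map2 (0.61) and Map1b (0.36). Tubulin genes are close in sequence, and how the counting divided shared reads between them is not given in the sources used here. Axonal motors were 9 higher, 4 lower and 7 not called of 20, with the kinesin Kif3a (log2 0.81) and the dynein heavy chain Dync1h1 (0.68) higher. Their rises were 3 without day 3 replicate 2 and 5 without day 3 replicate 1 or day 1 replicate 1, and their falls were 2 without day 1 replicate 2.

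Axon guidance genes were 10 higher, 15 lower and 19 not called of 44, against the background of 16.9% higher and 17.9% lower. Beside Sema3c, the semaphorin receptor Plxna2 rose by log2 1.28 ± 0.11 and the netrin receptor Dcc by 0.998 ± 0.09, while the semaphorin Sema5a fell (log2 -1.60 ± 0.10). Matrix and adhesion genes were 6 higher, 11 lower and 27 not called of 44, and growth factor and cytokine signalling genes 10 higher, 10 lower and 13 not called of 33. Fgfr1, a fibroblast growth factor receptor, had 90.4, 87.7 and 98.5 CPM on day 3 and 17.1, 16.9 and 18.99 CPM on day 1 (log2 2.38 ± 0.11), and Tnfrsf12a, the receptor of TWEAK, rose by log2 2.32 ± 0.20. Vgf, given above, was another rise of the growth factor list. Among the falls were Fgf1 of that list (log2 -0.71 ± 0.09) and the integrin subunit gene Itga4 of the matrix list (-1.84 ± 0.15).

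Sterol and fatty acid synthesis was among the lists with the largest share of falls, with 24 of 31 members lower, 2 higher and 5 not called (median log2 -0.98). Fasn, the fatty acid synthase, had 96.96, 127 and 111 CPM on day 3 and 254, 283 and 304 CPM on day 1, 2.51-fold lower (log2 -1.33 ± 0.11, adjusted p = 3.64e-07). Scd2, a desaturase of fatty acids, had 268, 245 and 214 CPM on day 3 and 525, 533 and 564 CPM on day 1 (log2 -1.16 ± 0.09). In both genes each day 3 library was below each day 1 library. Sqle, an early enzyme of the sterol branch, was an exception with 123, 144 and 156 CPM on day 3 and 86.8, 95.95 and 87.2 CPM on day 1 (log2 0.65 ± 0.10). The other rise of the list, in the citrate lyase Acly, was small (log2 0.22 ± 0.08) and lost its call when day 3 replicate 1, 2 or 3 or day 1 replicate 2 or 3 was left out, so that the count of rises was then 1.

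Glycolysis genes were 12 lower, 3 higher and 6 not called of 21 (median log2 -0.42), against a background of 16.9% higher and 17.9% lower. Aldoc, an aldolase that is also strong in astrocytes and Mueller glia, had 249, 178 and 211 CPM on day 3 and 987, 1014 and 1052 CPM on day 1, 4.78-fold lower (log2 -2.26 ± 0.11, adjusted p = 2.81e-09). Ldhb, of lactate and pyruvate exchange, fell (log2 -0.998 ± 0.08), as did the pyruvate kinase Pkm (-0.73 ± 0.07), while the glucose carrier Slc2a1 rose (1.17 ± 0.09). Oxidative phosphorylation subunits were mostly not called, with 58 of 75 in that class, 6 higher and 11 lower, both shares under that background. The falls were 5 to 7 without day 3 replicate 2, day 1 replicate 1 or day 1 replicate 2. The exception in size was Cox6a2, the heart and muscle form of a cytochrome oxidase subunit, with 31.4, 37.9 and 40.97 CPM on day 3 and 2.33, 3.78 and 3.46 CPM on day 1 (log2 3.52 ± 0.21). Antioxidant and Nrf2 pathway genes were 7 higher, 4 lower and 10 not called of 21, with a share of falls near the background. Srxn1, which repairs oxidized peroxiredoxin, had 883, 942 and 927 CPM on day 3 and 242, 241 and 236 CPM on day 1 (log2 1.94 ± 0.08), the heme oxygenase gene Hmox1 had 65.96, 67.4 and 70.6 CPM on day 3 and 17.2, 19.3 and 18.3 CPM on day 1, and the ferritin gene Fth1 fell (log2 -0.92 ± 0.12). Lysosome genes were 9 higher, 4 lower and 16 not called of 29, with a share of falls under the background. The membrane protein gene Cd63 rose by log2 1.55 ± 0.12 and the autophagy receptor gene Sqstm1 by 1.06 ± 0.08, while the protease gene Ctss, which microglia express strongly, had 31.97, 17.6 and 16.1 CPM on day 3 and 467, 56.1 and 93.4 CPM on day 1. The 4 falls were 2 without day 3 replicate 3 or day 1 replicate 1.

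The deepest falls were in interferon-induced genes. The 12 largest were Ifi44, Iigp1, Gbp3, F830016B08Rik, Gbp9, Ifit3, Ifit1, Gbp8, Irf7, Rtp4, Oasl2 and Gm12250, most of which encode antiviral proteins or GTPases known to be induced by interferon. Ifit3, which binds foreign RNA with its relatives, on chromosome 19 (34583531 to 34588731, plus strand), had 4.45, 4.18 and 5.90 CPM on day 3 and 320.3, 441 and 194 CPM on day 1, 65.6-fold lower (log2 -6.04 ± 0.27, adjusted p = 1.86e-09). Oasl2, of the oligoadenylate synthetase family, had 8.59, 10.02 and 10.7 CPM on day 3 and 564, 784 and 247 CPM on day 1 (log2 -5.77 ± 0.34). Ifi44, on chromosome 3 (151730922 to 151749960, minus strand), had 0.0423, 0.308 and 0.170 CPM on day 3, which were 1, 7 and 4 counts, and 123, 79.9 and 25.6 CPM on day 1 (log2 -8.74 ± 0.65). In each of these genes day 1 replicate 3 was the lowest of the day 1 libraries and still many times above day 3. Of the 30 members of the interferon and antigen presentation list, 29 fell, all by at least 2-fold, and none rose (median log2 -4.59). They included the peptide transporter gene Tap1 (log2 -4.39) and the immunoproteasome subunit gene Psmb9 (-4.45), and the 1 member not called was Ifi27. The Ifit, Gbp, Oas and class I families hold genes close in sequence, so their single values are less certain than the fall of the families.

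Interferon levels also differed between libraries of 1 day. On the scaling of all 13 RNA libraries, the 30 genes summed to 607, 722 and 6473 CPM in day 0 replicates 1, 2 and 3, to 7506, 6004 and 4371 on day 1, to 8355 and 3071 on day 2, to 584, 534 and 525 on day 3 and to 1860 and 2038 on day 4 (replicates 2 and 3). One uninjured library thus stood at the level of day 1, and the other 2 were near that of day 3. Day 0 replicate 3 was at least 4-fold above both other uninjured libraries (after adding 0.5 CPM) in 68 of the 2416 genes that fell (2.81%), 2 of the 2273 that rose and 4 of those not called. Among the 413 falls past 2 on the log2 scale it was so in 67, and among the 160 past 3 in 58. Markers of microglia and macrophages were lower too, with 13 of 15 falling, 1 rising and 1 not called (median log2 -2.19). They summed to 224, 219 and 216 CPM on day 3 and 862, 195 and 289 CPM on day 1, so the sums overlapped, and day 1 replicate 1 stood highest. C1qb, of the complement protein that microglia make, had 7.62, 6.20 and 6.71 CPM on day 3 and 133, 17.7 and 33.8 CPM on day 1 (log2 -3.16 ± 0.54, adjusted p = 0.00033). The 1 marker that rose was Cd68, a lysosomal protein, with 112, 124 and 122 CPM on day 3 and 56.8, 7.24 and 12.2 CPM on day 1, and without it the list summed to 112, 93.9 and 93.0 CPM on day 3 and 799, 184 and 277 CPM on day 1 on the scaling of all 13 libraries. Uninjured replicate 3, high in interferon genes, had 155 CPM of the microglia markers, against 201 and 133 CPM in uninjured replicates 1 and 2. The part of microglia in the interferon values was not tested.

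**Figure D3:**
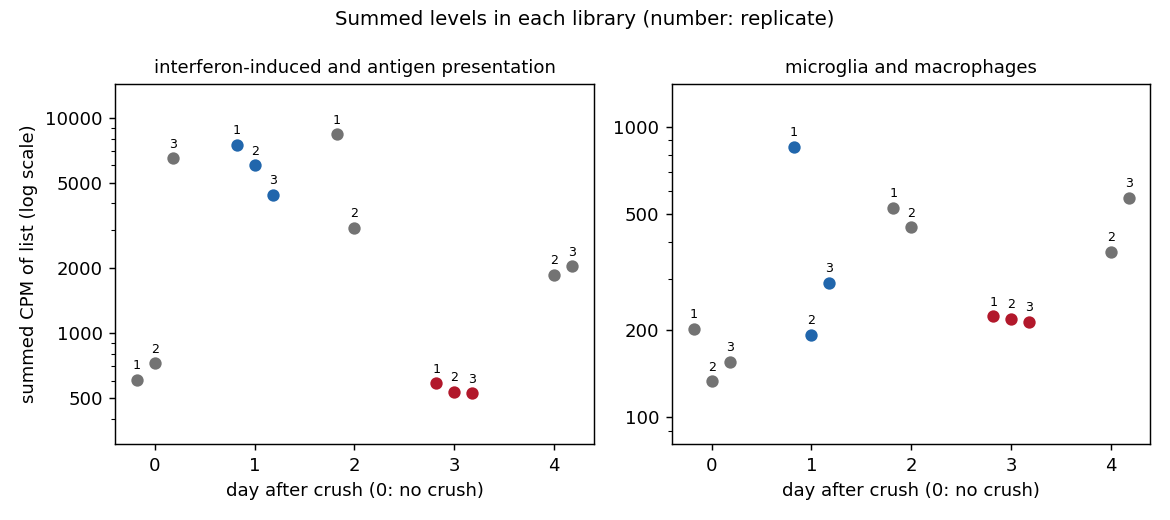
Summed CPM on a log axis of the 30 interferon and antigen presentation genes and of the 15 microglia and macrophage markers in each of the 13 RNA libraries, by day, with the number beside a point giving the replicate. The interferon sum is 525 to 584 CPM in the day 3 libraries and 4371 to 7506 CPM in those of day 1, and uninjured replicate 3 lies at 6473 CPM.

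Falls not tied to that uninjured library were also deep. Among the falls with uninjured levels within 4-fold of each other, a set chosen after the values were seen, the membrane peptidase neprilysin (Mme) had 0.508, 1.80 and 2.42 CPM on day 3 and 37.1, 28.1 and 20.4 CPM on day 1 (log2 -4.17 ± 0.39, adjusted p = 1.22e-06), and the matrix link protein gene Hapln1 1.95, 0.527 and 0.807 CPM on day 3 and 14.5, 16.01 and 13.8 CPM on day 1 (log2 -3.75 ± 0.39). Both genes were present in the uninjured libraries, with Mme at 22.4, 38.9 and 35.5 CPM and Hapln1 at 27.7, 14.8 and 22.2 CPM. Others of this set are immune genes (Il2rg, log2 -4.86 ± 0.80, Ccl2, -4.21 ± 0.54, Ccl5, -3.74 ± 0.59, and C3, -3.62 ± 0.50). In each of these immune genes day 1 replicate 1, the day 1 library highest in the microglia markers, was the highest day 1 library. Il2rg had 21.5, 3.78 and 3.78 CPM on day 1, and C3 had 60.1, 14.4 and 15.0 CPM.

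Markers of other retinal cells were counted and summed in the same way. Of the 12 rod markers 3 fell and none rose, and the number of falls was between 0 and 5 under other settings. Of the 12 Mueller glia and astrocyte markers tested, 2 rose, 4 fell and 6 were not called, and they summed to 1119, 878 and 1035 CPM on day 3 and 2212, 2001 and 1992 CPM on day 1, with Aldoc holding 178 to 249 CPM of the day 3 sums and 987 to 1052 CPM of those of day 1. Within that list Rlbp1, the retinal-binding protein of Mueller glia, was higher, with 18.1, 17.7 and 18.1 CPM on day 3 and 3.62, 3.78 and 5.12 CPM on day 1 (log2 2.10 ± 0.22), and the calcium-binding protein gene S100b was lower, with 5.93, 4.18 and 4.08 CPM on day 3 and 11.2, 14.9 and 9.31 CPM on day 1 (log2 -1.32 ± 0.27). The 10 amacrine and horizontal cell markers tested summed to 784, 630.3 and 769 CPM on day 3 and 1006, 1071 and 1048 CPM on day 1 (1 higher, 4 lower), the 10 bipolar markers to 199, 188 and 224 CPM on day 3 and 211, 213 and 212 CPM on day 1 (1 higher, 2 lower) and the 8 cone markers to 35.9, 15.8 and 23.99 CPM on day 3 and 26.5, 20.2 and 25.5 CPM on day 1 (none higher, 1 lower). The part of these cells in the falls named above was not tested.

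Set beside the other days, the genes followed several courses. Sprr1a had 0.0541, 0.216 and 4.08 CPM on day 0, 7.59, 5.57 and 4.39 on day 1, 188 and 159.8 on day 2, 617, 668 and 699 on day 3 and 424 and 394 on day 4. It was thus highest on day 3, while Ecel1 and Atf3 had their highest mean on day 4, at 548 and 556 CPM. Ddit3 had 23.8, 16.02 and 22.8 CPM on day 0, 123, 113 and 127 on day 1, 269 and 281 on day 2, 209.7, 241 and 245 on day 3 and 191 and 172 on day 4, so its rise over day 1 ran through a highest mean on day 2. Psat1 had 233 and 294 CPM on day 2, 345, 412 and 395 on day 3 and 315 and 250.1 on day 4. Chrna6 had 531, 583 and 578 CPM on day 0, 314, 309.6 and 331 on day 1, 97.5 and 101 on day 2, 33.3, 26.3 and 34.2 on day 3 and 17.9 and 15.9 on day 4, lower on each later day.

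**Figure D4:**
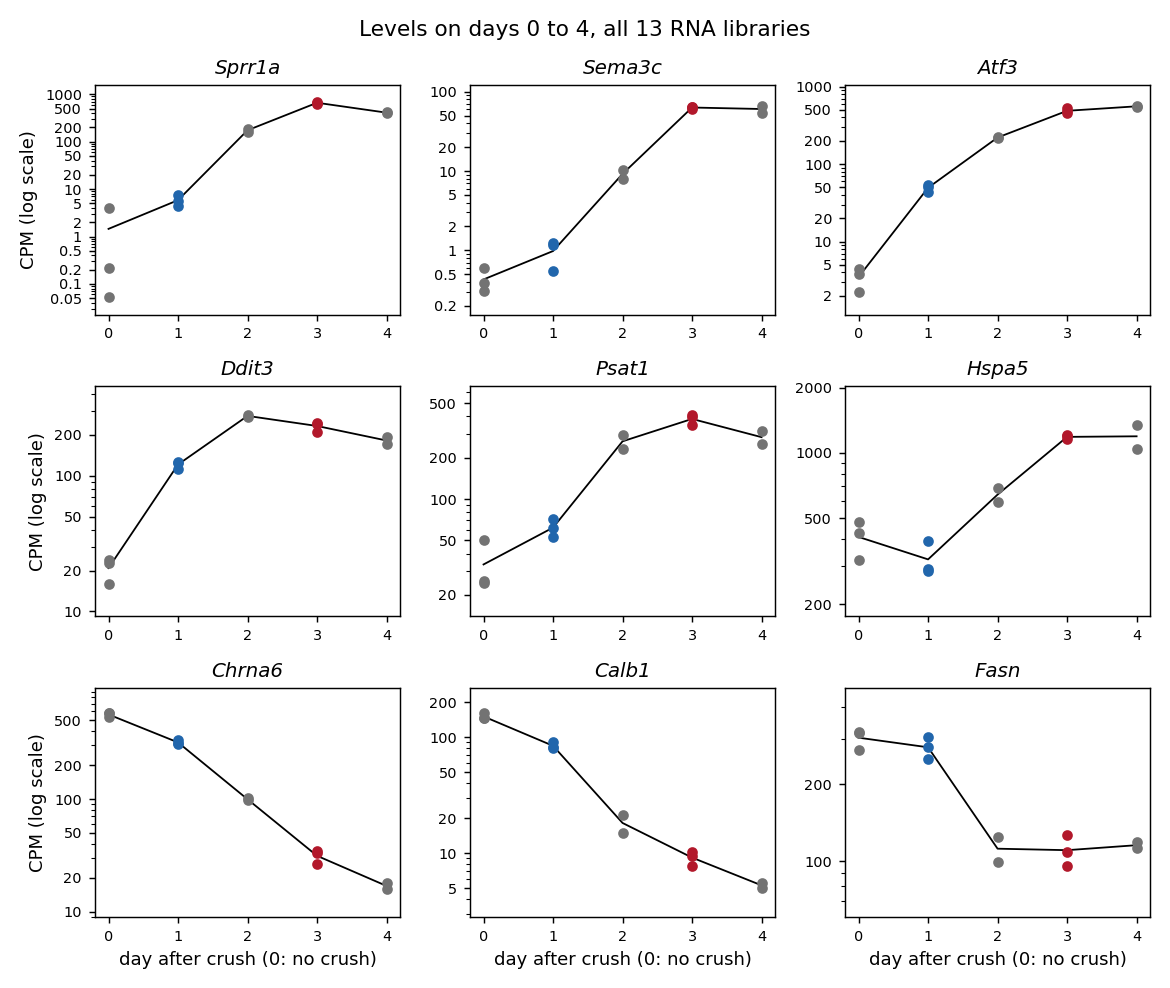
CPM (log axis, scaling of all 13 RNA libraries) of Sprr1a, Sema3c, Atf3, Ddit3, Psat1, Hspa5, Chrna6, Calb1 and Fasn on days 0 to 4 after crush; points are libraries and the line joins the means. Ddit3 is highest on day 2, Sprr1a on day 3 and Atf3 on day 4, and Chrna6 is lower on each later day.

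The libraries of days 4 and 2, which share none with days 3 and 1, gave a second comparison of a later with an earlier day (n = 2 each). With edgeR, 1090 of 13491 genes tested (8.08%) were higher and 1333 (9.88%) lower on day 4 than on day 2. Of the genes higher on day 3 than on day 1 that were tested here, 762 of 2270 (33.6%) were higher on day 4 than on day 2 and 41 were lower. Of those lower on day 3, 987 of 2408 (41.0%) were lower on day 4 and 21 were higher. Among genes not called, 305 were higher and 303 lower of 8665. Across the 13343 genes tested in both, the log2 changes had a Pearson r of 0.56, given as a description over genes, which are not independent. Xist had 4688 and 3583 CPM on day 4 and 0.561 and 1.30 CPM on day 2, so for day 4 against day 2 the days and a difference in the animals' sex cannot be told apart. Without day 2 replicate 1 the count of genes called fell to 1504 and without day 2 replicate 2 to 1515, against 2423 with all 4 libraries.

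The lists differed in how many members were called on day 4 against day 2, where the background was 8.08% higher and 9.88% lower of all genes tested. Of the axon injury list 22 of 33 were higher on day 4 than on day 2 and 2 lower, and Cd44 had 113 and 119 CPM on day 4 and 13.1 and 12.3 CPM on day 2 (log2 3.20, adjusted p = 1.17e-07). Of the RGC identity genes 10 of 22 and of the transmitter receptors 24 of 44 were lower on day 4, with Chrna6 at log2 -2.55 (adjusted p = 5.49e-07). The stress response list had 2 of 20 higher and 3 lower on day 4 than on day 2, shares near that background. Ddit3 was lower on day 4 (log2 -0.60, adjusted p = 0.000455), as was Atf5 (log2 -0.40, adjusted p = 0.00677), Atf3 was higher (log2 1.34) and Psat1 was not called (log2 0.10, adjusted p = 0.629). Of the tRNA synthetases 5 of 19 were higher and 2 lower, the falls near the background. Sterol and fatty acid synthesis genes were 6 lower and 2 higher of 31, the rises near the background. Oxidative phosphorylation subunits were 18 higher and none lower of 74. Interferon genes were 21 lower and 1 higher of 30, with Ifit3 at log2 -2.28 (adjusted p = 0.00546).

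**Figure D5:**
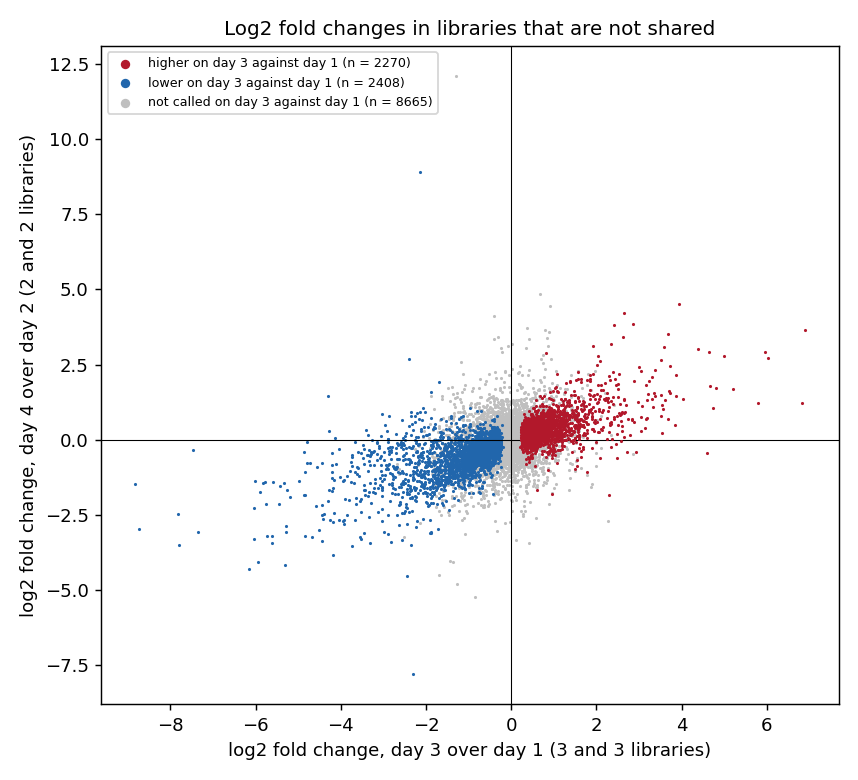
The log2 change of each gene on day 4 against day 2 (vertical axis) and on day 3 against day 1 (horizontal axis), with genes coloured by their call on day 3 against day 1 (2270 higher, 2408 lower, 8665 not called). Most higher genes lie above 0 on the vertical axis (84.8%) and most lower genes below it (88.0%), while those not called lie on both sides (51.3% above).

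A smaller share of promoter peaks than of genes was called between the days. These shares come from different assays and do not measure which of them changed more. ATAC-seq reads accessible DNA by transposase insertion, and 3 libraries each of days 3 and 1 shared 1 batch of the authors' covariate table. The share of reads in peaks was 0.31, 0.173 and 0.185 on day 3 and 0.157, 0.186 and 0.184 on day 1, so that day 3 replicate 1 stood apart. Of 30150 promoter peaks (within 1 kb of a start) 1868 (6.2%) were higher and 922 (3.06%) lower on day 3 by edgeR's quasi-likelihood test. These counts rest on single libraries, being 0 without day 1 replicate 2 (where 4393 peaks had an unadjusted p below 0.05), 963 without day 1 replicate 1, 919 without day 3 replicate 2, 1310 without day 3 replicate 3 and 4781 without day 3 replicate 1, against 2790 with all 6. Promoter peaks of genes with higher RNA had a median log2 change of 0.16, with 5.40% higher and 1.92% lower. Those of genes with lower RNA had a median of 0.04, with 6.58% higher and 5.69% lower, and those of genes not called had a median of 0.13, with 4.87% higher and 2.64% lower. Without day 3 replicate 1 the median of all promoter peaks was 0.02, against 0.11 with it, and the 3 medians were 0.04, -0.03 and 0.01 for genes with higher RNA, with lower RNA and not called. Among the 198 genes of the naming rules, peaks that cover a start numbered 107 for genes with higher RNA, of which 12 were higher and 4 lower on day 3, and 129 for genes with lower RNA, of which 21 were higher and 10 lower. The ATAC and RNA libraries are separate samples in the labels. RNA libraries of 1 day differed in interferon level, as given above, and the level of interferon RNA in the ATAC samples is not known. The peak at the Ifit3 start was higher on day 3, opposite in sign to the change in the RNA libraries, at 8.92, 14.4 and 12.7 CPM on day 3 and 5.23, 5.12 and 7.03 CPM on day 1 (log2 1.05 ± 0.19, adjusted p = 0.00347). Peaks at starts of the interferon-induced genes Gbp3 (log2 0.93, adjusted p = 0.00374), Tap1 (0.76, 0.00511) and Oasl2 (0.68, 0.0137) and of Tppp3 (0.78, 0.0102), Rbpms (0.56, 0.0198) and Fos (0.56, 0.0363) were likewise higher while the RNA was lower. Other start peaks were called with the sign of the RNA change. They were higher for Psat1 (log2 0.53, adjusted p = 0.0282), Sox11 (0.57, 0.0331) and Cd44 (0.78, 0.00941). They were lower for Cartpt (-0.80, 0.00924), Gria2 (-0.71, 0.0141) and Tubb4a (-0.71, 0.0147). The peaks at the starts of Chac1 (log2 0.35, adjusted p = 0.170), Slc7a11 (0.49, 0.0538), Pou4f2 (-0.37, 0.125) and Chrna6 (-0.51, 0.0874) had the sign of the RNA change but were not called.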

How the data were processed

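RNA counts of 6 libraries (3 of day 3, 3 of day 1) were compared. The deposited RNA table holds whole-number counts per gene for 13752 genes and 13 of the 15 labelled RNA samples. Per the submitters' processing notes, edgeR, HTSeq, Picard and STAR were used for RNA on build mm10, and for ATAC Bowtie2, MACS2, ChIPseeker, featureCounts and DESeq2 among others. The sources used here give neither versions nor whether counting used strand. The authors' normalized RNA values are on a log2 scale. Per the file headers the authors' covariate tables give a score per RNA library for the first sequencing component and the fraction of reads in peaks per ATAC library. The deposited ATAC table gives counts per peak.

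Genes were compared by edgeR 4.0.16 under R 4.3.3 (quasi-likelihood F test, two-sided, TMM, filterByExpr, day as the only term, Benjamini-Hochberg over all genes tested, threshold 0.05). Standard errors are the size of the log2 change over the root of its F value. CPM of the 6 libraries used their own TMM scaling, and values over days 0 to 4 used that of all 13. ATAC peak counts were tested in the same way within the batch that holds both days. The test was checked on simulated counts first. Alternatives used DESeq2 1.42.0, limma 3.58.1, other scalings, filters and terms, and each library left out in turn. Replicate numbers are shared between the days, but nothing in the labels ties them to an animal or batch. Exact permutation of 3 against 3 libraries cannot give a p under 0.1 and was not used.

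The members and the gene lists were chosen with earlier results of these data known, so their counts are descriptions, read against the share of all genes tested. Genes named are the 12 largest rises and falls among those called with a mean of at least 5 CPM and no overlap of the days, up to 3 rising and 3 falling members of each list with the smallest adjusted p, and Atf3, Atf4, Ddit3, Cebpg, Jun, Sox11, Pou4f1, Pou4f2 and Rbpms. Xist, Thy1, Ifi27, Mme, Hapln1, Ccl2, Ccl5, C3 and Il2rg were chosen after their values were seen. Sequences are from RefSeq.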

Additional observations from a re-analysis of the deposited data

How the results depend on the processing

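Counts of genes called are given as all, higher and lower. Scaling by DESeq2's size factors (4691, 2294 and 2397) or by library size only (4675, 2282 and 2393), no filter (4700) and a mean count of at least 20 (4684) hardly moved them, and the median log2 change of all genes stayed within 0.03 of 0 under every alternative. DESeq2's Wald test gave 4997, all 13 RNA libraries in 1 fit 4605, the first sequencing component as a term 4129, and limma on the deposited normalized values 4677 (2104 and 2573). Requiring a change of at least 2-fold left 1622 (543 and 1079). Leaving out 1 library gave 3860 to 4267 (1831 to 2069 and 2029 to 2211). The replicate block gave 4791. Libraries of the same number deviated together only weakly (correlations of 0.0321, 0.0231 and 0.0548), although each correlated best with its own number, so the numbers are not taken as pairs. Of 198 named genes in 2970 pairs of gene and setting, none changed direction and 70 lost the call. Day 4 against day 2 gave 1504 to 2595 when a library was left out, 2640 with DESeq2 and 1786 with all RNA libraries in 1 fit. Promoter peaks called ran from 0 to 4781 when a library was left out, were 433 with all ATAC libraries and the batch as a term, and 4305 with a replicate block, chosen after seeing the data. With 3 libraries a group, low genes are least certain, and standard errors cover the spread of these libraries only.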
